A study of Mus musculus with 6 samples.

Results

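The olfactory transduction cascade is the set of proteins that turns binding of an odorant into a current in the cilia of olfactory sensory neurons. It is represented here by 9 genes: Omp, Gnal, Adcy3, Cnga2, Cnga4, Ric8b, Pde1c, Ano2 and Gng13. The genes were chosen by their measured level in 1 array, the one labelled knockout replicate 3, so their difference in that array is described without a test. Of these 9 among the 18193 genes of the array, 8 had at least 1 probe set whose annotation named that gene alone, 21 probe sets in all. Ano2 was named by no such probe set and was not analysed here. One-colour Affymetrix arrays measured total RNA from retina without its pigment epithelium, taken at post-natal day 40 from mice of the BALB/c AJ strain. The knockout group, genotype ko/ko for Nxnl2, had 3 arrays, and the wild-type group, genotype wt/wt, had 3 arrays. No other allele or treatment was labelled, and the labels do not say whether replicates were separate animals or pools, so a p-value here reflects sample-to-sample spread that could be purely technical. All values below are deposited log2 values, and the number of arrays limits their precision.

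In an olfactory sensory neuron the odorant receptor activates a G protein built on Gαolf, which switches on an adenylyl cyclase, and the cyclic AMP formed opens a cyclic nucleotide-gated cation channel. Calcium entering through that channel opens chloride channels, which amplify the current, and also promotes removal of cyclic AMP and closing of the cation channel. Photoreceptors use a related scheme with other family members, in which a transducin lowers cyclic GMP through a phosphodiesterase and the cation channel closes.

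The array labelled knockout replicate 3 went against its labels. Nxnl2, the deleted gene, read 9.21 in it with the brighter probe set, against 3.78 and 3.73 in knockout replicates 1 and 2 and 11.38 to 11.45 in wild type. The dimmer probe set read 6.83 in it, against 4.25 and 4.11 in knockout replicates 1 and 2 and 8.36 to 8.81 in wild type. That array correlated with the others at 0.848 to 0.853 over all probe sets, while the other 5 correlated with one another at 0.994 to 0.996 (10 pairs). Knockout against wild type is therefore given with and without it, and the other 5 arrays, whose rod markers were bright, are called the retina arrays. No detection calls came with the values. The brightest of 27 Bacillus control probe sets, which match no mouse transcript and read 4.13 to 4.60 by array, was taken as background. Where a value lay below that control on its array, the control was put in its place and the fold is given as a lower bound. On this basis each of the 7 measured rod markers was at least 85.9-fold lower in the array labelled knockout replicate 3 than in the retina arrays, each of the 4 markers of olfactory sensory neurons outside the cascade was at least 6.23-fold higher, and each of the 3 sustentacular cell markers at least 194-fold higher.

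In the array labelled knockout replicate 3, 7 of the 8 measured genes had a probe set more than 2 log2 units above the mean of the retina arrays, and Gng13 stood 1.63 above it. Ric8b is among the 7 by its dimmer probe set only. With the brightest probe set of each gene, 6 of 8 lay that far above, against 7.44% of all 18193 genes. That probe set was picked over all 6 arrays, the array labelled knockout replicate 3 included. Pde1c is among the 6 through this choice, since its probe set brightest in the retina arrays alone stood at -0.05. By probe set, 14 of 21 lay that far above and 0 that far below, where 5.40% of all 45037 probe sets lay that far above and 3.65% that far below. With values floored at the highest control of each array, 13 of 21 lay that far above, from the same number of genes (7), against 4.70% of all probe sets. For 17 of 21 that array exceeded each of the other 5, as it did for 31.4% of all probe sets. These differences are why the genes were taken up and are given as a description of 1 array. The median over the 21 probe sets was 3.13, 3.01 with the floor, and that over all probe sets was -0.08. In a tissue extract fewer cells of a type and less RNA per cell cannot be told apart, and the same holds for more. In the retina arrays the same probe sets were steady, with an SD between 0.07 and 0.28.

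**Figure D1:**
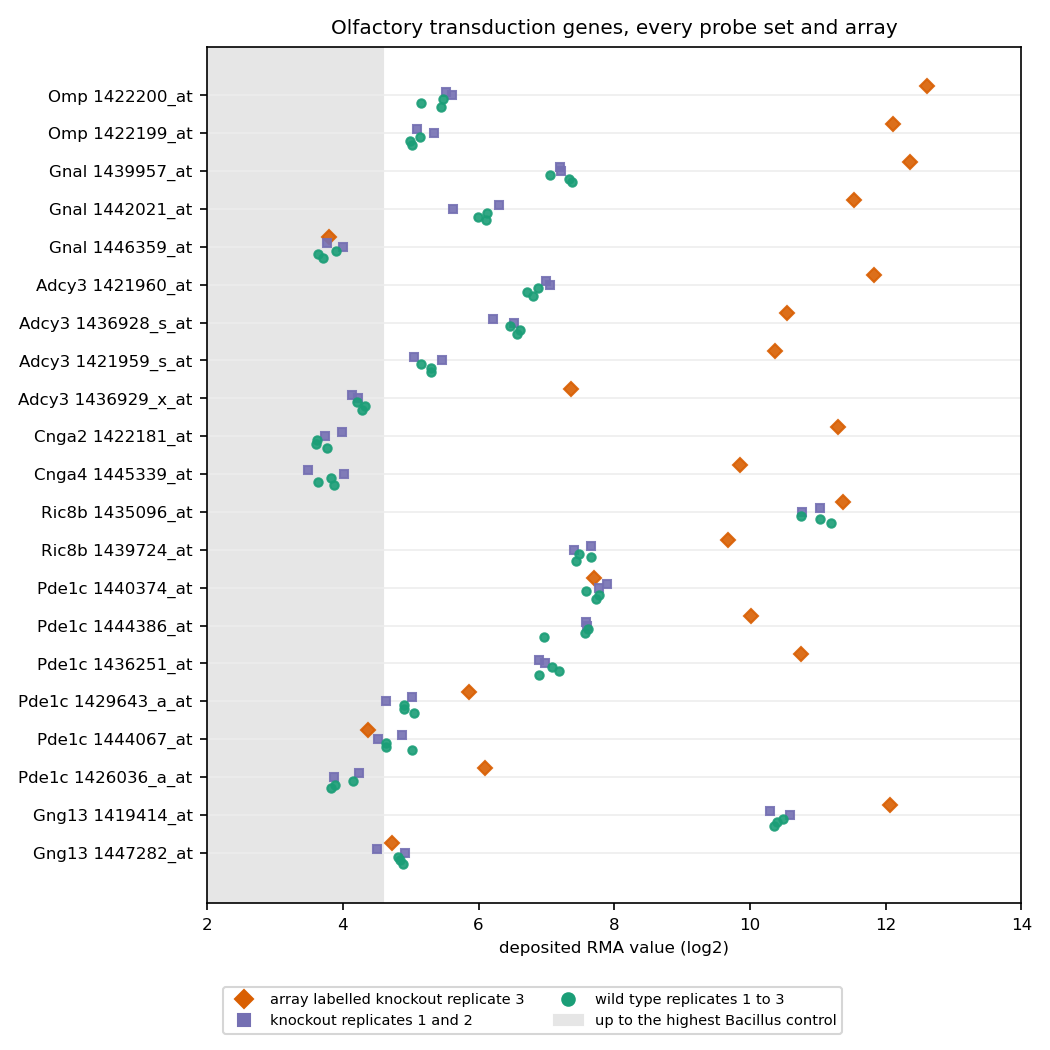
Deposited log2 value (x axis) of each of the 21 probe sets (rows) on each array, with a diamond for the array labelled knockout replicate 3, squares for knockout replicates 1 and 2 and circles for wild type; the grey band ends at 4.60, the highest Bacillus control of any array. In the rows of Omp, Cnga2 and Cnga4 the diamond stands far to the right of the other symbols of its row, while squares and circles of each probe set lie close together.

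The channel subunits Cnga2 and Cnga4 were bright in the array labelled knockout replicate 3 and at background in retina. Cnga2 is the subunit of the olfactory cyclic nucleotide-gated channel that can form a channel alone. Its probe set read 11.30 in the array labelled knockout replicate 3, against 3.99 and 3.74 in knockout replicates 1 and 2 and 3.63, 3.61 and 3.77 in wild type. All 5 retina values lay below the highest Bacillus control, so they cannot be told from background, and the first array stood at least 125-fold higher on the linear scale when that control is used as the floor. Cnga4, a modulatory subunit that speeds closing of the channel by calcium and calmodulin, behaved alike. It read 9.86 in the array labelled knockout replicate 3, against 3.49 and 4.01 in knockout replicates 1 and 2 and 3.83, 3.64 and 3.87 in wild type. Again none of the retina values passed the control, and the array labelled knockout replicate 3 was at least 46.2-fold higher.

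Omp, the abundant cytosolic protein of mature olfactory neurons that shapes the speed of their responses, was above background on all arrays. Its brighter probe set read 12.61 in the array labelled knockout replicate 3, against 5.52 and 5.62 in knockout replicates 1 and 2 and 5.47, 5.15 and 5.45 in wild type. The difference of 7.17 log2 units, 144-fold, was met by 6.98 with the other Omp probe set. Both Omp probe sets stood above the highest control on every retina array.

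The α subunit of the G protein and the cyclase were also far above the retina arrays. Gnal encodes Gαolf, the α subunit that couples odorant receptors to the cyclase and is also used by neurons of the striatum. Its brightest probe set read 12.36 in the array labelled knockout replicate 3, against 7.21 and 7.21 in knockout replicates 1 and 2 and 7.05, 7.33 and 7.38 in wild type, a difference of 5.13. A second Gnal probe set differed by 5.51. The remaining one read 3.80 against 3.80 ± 0.15 (SD, n = 5), below the highest control on all 6 arrays.

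Adcy3, the adenylyl cyclase of olfactory cilia and of many other primary cilia, was higher with all 4 of its probe sets. The brightest read 11.83 in the array labelled knockout replicate 3, against 7.0 and 7.05 in knockout replicates 1 and 2 and 6.87, 6.71 and 6.81 in wild type. The differences ran from 3.13 to 5.12 log2 units, and the lowest came from the dimmest probe set.

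Ric8b, a chaperone and exchange factor that stabilises Gαolf, was already bright in retina. Its brighter probe set read 11.38 in the array labelled knockout replicate 3, against 11.03 and 10.76 in knockout replicates 1 and 2 and 10.75, 11.04 and 11.19 in wild type. That is a difference of 0.42 from the retina mean, with 0.19 between it and the highest retina array, where the SD of the retina arrays was 0.19. The dimmer probe set read 9.68 against 7.53 ± 0.12 (SD, n = 5), so the pair disagree on size, at 0.42 and 2.16.

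Gng13, a G protein γ subunit found with Gαolf in olfactory cilia and also in taste cells and ON bipolar cells of the retina, was the other member bright in retina. It read 12.06 in the array labelled knockout replicate 3, against 10.30 and 10.59 in knockout replicates 1 and 2 and 10.49, 10.39 and 10.35 in wild type. The first array was above all others, by 1.63 over their mean. ON bipolar markers were low there: 4 of the 5 measured lay more than 2 log2 units below the retina mean, among them Pcp2, at least 211-fold lower, and Cabp5, at -6.21, and their part in the Gng13 value was not tested. The dimmer Gng13 probe set differed by -0.07.

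Pde1c, the calcium and calmodulin dependent phosphodiesterase that degrades cyclic AMP in olfactory cilia, gave a different answer with each probe set. The largest difference was 3.74, with 10.75 in the array labelled knockout replicate 3, 6.89 and 6.98 in knockout replicates 1 and 2 and 7.09, 7.18 and 6.89 in wild type. Others differed by 2.55, 0.96, -0.05 and -0.36, and the remaining one, below the control on all 5 retina arrays, was at least 3.42-fold higher. The probe set at -0.05 was the brightest of Pde1c in the retina arrays. It read 7.70 in the array labelled knockout replicate 3 and 7.75 ± 0.11 (SD, n = 5) in the retina arrays, so it did not share the difference. Which Pde1c transcripts each probe set reads was not tested.

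Promoter sequences from RefSeq (GRCm38.p6, the C57BL/6J reference) were found for 7 of the 9 genes, in 13 windows from 250 bases before to 50 bases after a start. None was found for Omp or Gnal, so their promoters were not searched. The full palindrome of the Olf/EBF factors that act in olfactory neurons is CCCNNGGG with a T before and an A after it. It was in 0 of the 7 genes on either strand, against 1.06% of all genes and 0.904% of all 32851 windows. The homeodomain core TAATTA was in 0 of the 7 genes, against 6.12% of all genes and 5.29% of all windows. The inner part CCCNNGGG reads the same on both strands and lies within the full palindrome. It was searched after the other motifs had given no match. It was in windows of 4 of the 7 genes (Ano2, Cnga2, Cnga4 and Gng13) and in those of 15.4% of all genes. By window it was in 4 of 13, against 13.7% of all windows. Genes differ in their number of windows, and a gene with more has more places for a match. A match is a description of letters and not of a bound site. The 250 bases before the start of Cnga2 and of Gng13 are printed, 5′ to 3′, since Cnga2 was at background in retina and Gng13 bright there, and both hold the inner letters (in capitals) upstream of the start.
Cnga2 (chrX:71991599-71991848, + strand): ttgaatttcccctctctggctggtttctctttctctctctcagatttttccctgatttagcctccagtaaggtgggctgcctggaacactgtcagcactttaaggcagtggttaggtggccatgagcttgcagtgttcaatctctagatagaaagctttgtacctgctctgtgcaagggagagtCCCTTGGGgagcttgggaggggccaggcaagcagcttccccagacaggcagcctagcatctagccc
Gng13 (chr17:25716922-25717171, + strand): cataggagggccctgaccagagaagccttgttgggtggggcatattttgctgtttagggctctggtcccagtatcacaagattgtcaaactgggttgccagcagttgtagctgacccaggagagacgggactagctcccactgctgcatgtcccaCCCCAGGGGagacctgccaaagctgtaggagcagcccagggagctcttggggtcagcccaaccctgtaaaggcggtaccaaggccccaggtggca
In Cnga2 the capitals begin at position -66 relative to the start. In Gng13, overlapping matches begin at positions -95 and -94.

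**Figure D2:**
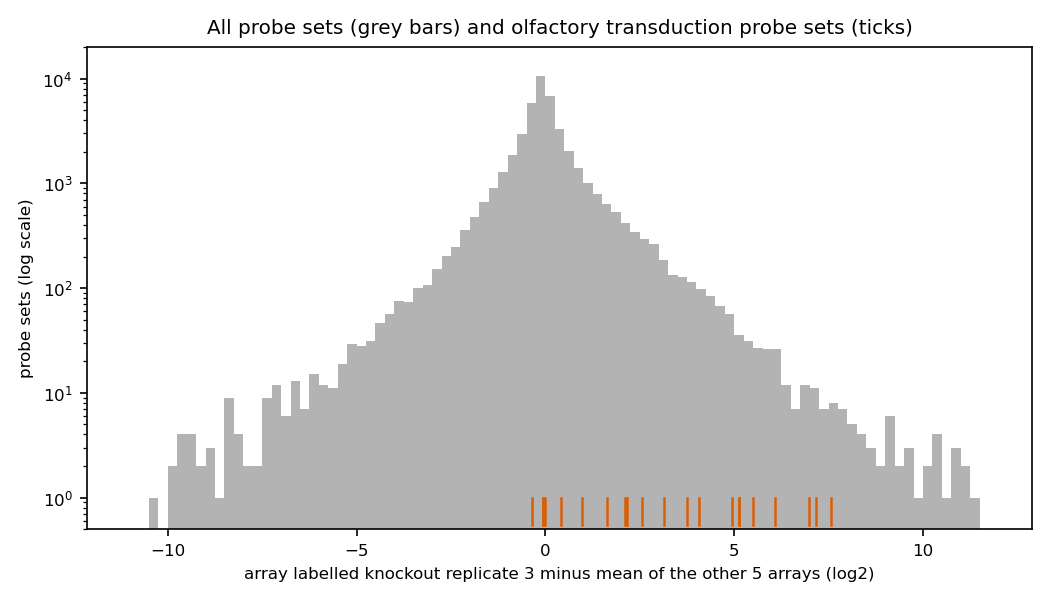
Grey bars count all 45037 probe sets (log-scaled y axis) by their value in the array labelled knockout replicate 3 minus the mean of the other 5 arrays (x axis, log2), and each tick marks one of the 21 olfactory transduction probe sets. No floor was applied to the values plotted. The ticks run from -0.36 to 7.55, and most lie right of 2.

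In retina itself, 6 of the 8 genes were above background: Omp, Gnal, Adcy3, Ric8b, Pde1c and Gng13 each had a probe set above the highest Bacillus control on all 5 retina arrays. By probe set this was 16 of 21, against 63.8% of all probe sets on the array. The 4 probe sets below the control on all 5 were those of Cnga2 and Cnga4, the dimmest of Gnal and the dimmest of Pde1c, and the dimmest of Adcy3 passed on 2 arrays. Signal above a control probe set does not by itself show a transcript, since other transcripts can bind weakly. The Omp probe sets read 5.0 to 5.62 in retina, against a highest control of 4.60 on any array.

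Knockout replicates 1 and 2 were then compared with wild type, a comparison that did not choose the genes. No member passed the test: limma, adjusted over all 45037 probe sets at 0.05, called 0 of 21, against 0.0111% of all, and 0 of 21 had an unadjusted p under 0.05, where 3.05% of all probe sets did. Each member had a limma adjusted p of 1.0. Differences in log2 (knockout minus wild type) ran from -0.18 to 0.23 with a median of 0.00, which was also the median over all probe sets. In sign, 11 lay above 0 and 10 below. Every 95% interval stayed within 0.65 log2 units of 0, so changes larger than that in either direction lie outside all 21 intervals.

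Adcy3 was nearest to the threshold. Its brightest probe set averaged 7.03 ± 0.04 (SD, n = 2) in knockout replicates 1 and 2 and 6.80 ± 0.081 (SD, n = 3) in wild type, a difference of 0.23 (95% interval -0.00064 to 0.46, limma unadjusted p = 0.0505). The other Adcy3 probe sets gave -0.18, -0.10 and 0.00. Omp differed by 0.21 (-0.08 to 0.50) and 0.17 (-0.10 to 0.43), Gnal by -0.05 (-0.33 to 0.24) and Gng13 by 0.04 (-0.24 to 0.31). For the channel subunits, both at background, the differences were 0.19 for Cnga2 and -0.03 for Cnga4. Ric8b stood at -0.10 and 0.01, and Pde1c between -0.13 and 0.21. The ranges of the groups were apart for 3 of the 21 probe sets, 1 each of Omp, Adcy3 and Pde1c, all higher in knockout, and for 16.3% of all probe sets.

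**Figure D3:**
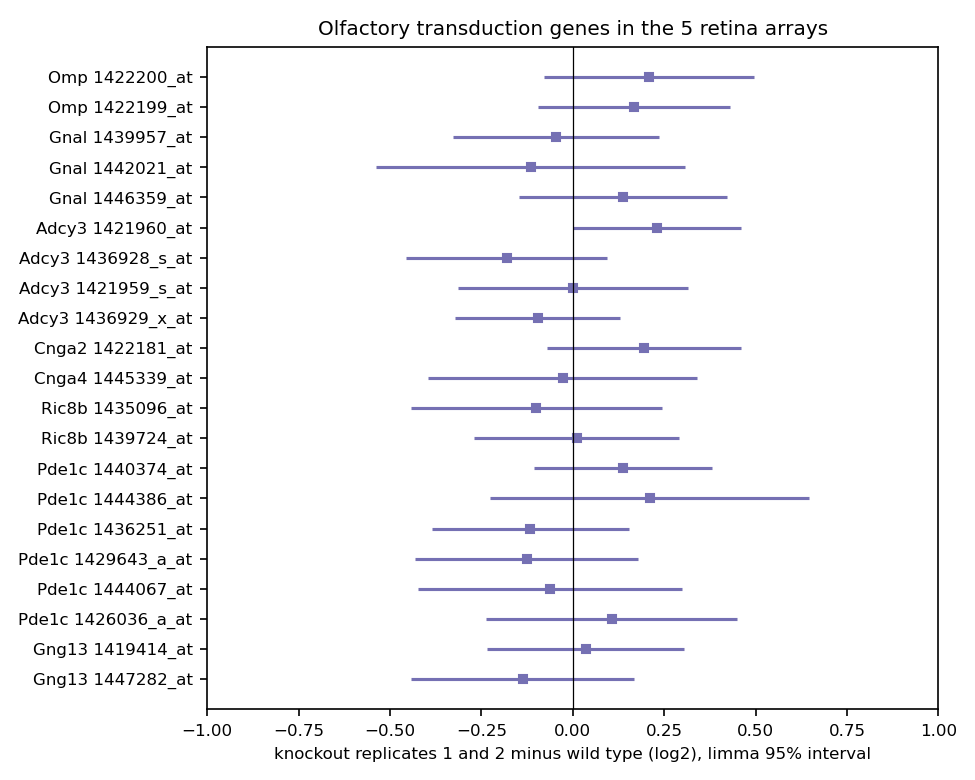
Difference between knockout replicates 1 and 2 and wild type (squares, log2, x axis) with its limma 95% interval (lines) for each of the 21 probe sets (rows). All intervals include 0 and none extends past 0.65 in either direction.

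With all 6 arrays, as the study's design sets the groups, the array labelled knockout replicate 3 set nearly all of the difference for the members that stood out in it. Cnga2 stood at 2.67 (SE 2.09), Omp at 2.56 (SE 1.99), Gnal at 1.67 (SE 1.45), Adcy3 at 1.83 (SE 1.35) and Cnga4 at 2.01 (SE 1.73). None passed, each with a limma adjusted p = 0.798. Of the other brightest probe sets, Pde1c stood at 1.02, Gng13 at 0.57 and Ric8b at 0.06. The Pde1c probe set brightest in the retina arrays alone stood at 0.09. By limma 0 of 21 member probe sets passed and 0% of all 45037 did, and 0 of 21 had an unadjusted p under 0.05, where 1.0% of all did. Without that array the differences of the 8 brightest probe sets were those given above, between -0.10 and 0.23.

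Other genes that serve odour signalling gave a mixed picture in the array labelled knockout replicate 3. Of the 22 names listed for this, chosen with earlier results known, 14 were measured, and Adrbk2 is an older symbol of the measured Grk3. Of these 14, 3 lay more than 2 log2 units above the retina arrays, 1 lay as far below and 10 were between, with a median of 0.15. The brightest probe sets of all genes lay that far above in 7.44% and that far below in 4.49%.

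Stoml3, a stomatin-like protein of olfactory cilia, read 13.11 in that array, against 3.82 and 3.91 in knockout replicates 1 and 2 and 3.95, 3.82 and 4.27 in wild type. With the control as floor it was at least 434-fold higher. Slc12a2, the cotransporter NKCC1 that loads olfactory neurons with the chloride released through Ano2 channels, was 2.55, 2.76 and 3.60 higher with its 3 probe sets. Pde4a, a phosphodiesterase found in olfactory neurons outside the cilia, was 2.89 higher. Arrb2, the β-arrestin that takes part in receptor desensitisation, was 1.29 and 1.45 higher, while the receptor kinase gene Grk3 differed by 0.12 and the calcium exchanger gene Slc24a4 by 0.18.

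Cngb1 went the other way. It encodes a subunit of the rod channel, and a shorter form of it completes the olfactory channel with Cnga2 and Cnga4. Its probe set read 4.37 in the array labelled knockout replicate 3, against 10.71 and 11.20 in knockout replicates 1 and 2 and 11.01, 10.94 and 11.14 in wild type. The first array thus differed by -6.63 and lay just above its highest control of 4.13, while Cnga2 and Cnga4 were bright in it. Which form of Cngb1 the probe set reads was not tested. In the 5 retina arrays none of the 14 genes passed (limma, differences -0.16 to 0.18). With all 6 arrays none passed either, with differences between -2.27 for Cngb1 and 2.93 for Stoml3.

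The gene families to which the members belong also hold the photoreceptor forms of the same proteins, and most of these lay far below the retina arrays. Gngt2 stood at -0.27, but its probe set read only 4.40 to 4.73 in the retina arrays. It passed the highest control on 4 of the 5, so a decrease could hardly show. Pde6d, listed with the phosphodiesterases, stood at -0.10. Of the 52 measured paralogues, 3 lay more than 2 log2 units above the retina arrays in the array labelled knockout replicate 3, 16 lay as far below and 33 were between. Among G protein α subunits Gnal stood at 5.13, while the rod transducin gene Gnat1 stood at -9.93 and the cone transducin gene Gnat2 at -6.64. Gnas, the close relative of Gnal that serves most other tissues, stood at -0.54. Of the 14 α paralogues none lay more than 2 above, the highest being Gna14 at 2.00.

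For the channel the contrast was of similar size. The rod subunit gene Cnga1 read 3.13 in the array labelled knockout replicate 3, against 11.93 and 12.06 in knockout replicates 1 and 2 and 11.96, 11.98 and 11.98 in wild type, at least 231-fold lower. Cngb3 of the cone channel stood at -2.14. Cnga3 was named by no probe set alone.

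Adenylyl cyclases other than Adcy3 lay between -4.92 for Adcy1, a calcium-stimulated cyclase of neurons, and 1.73 for Adcy7. Among phosphodiesterases the rod catalytic subunit gene Pde6b was at least 676-fold lower, the inhibitory subunit gene Pde6g stood at -8.18 and Pde1b, a close relative of Pde1c, at -2.71. G protein γ genes included Gngt1 of rods, at least 415-fold lower, and Gng8, a γ subunit of immature olfactory neurons, at least 8.43-fold higher, where Gng13 stood at 1.63 in log2, or 3.11-fold. Ric8a, which serves other α subunits, stood at 1.80 with its brightest probe set and at 1.15, 0.05 and 0.10 with the rest. Although Ano2 was not analysed here, 7 other anoctamins were, and the calcium-activated chloride channel gene Ano1 stood at 3.74 and the lipid scramblase gene Ano6 at 2.80.

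**Figure D4:**
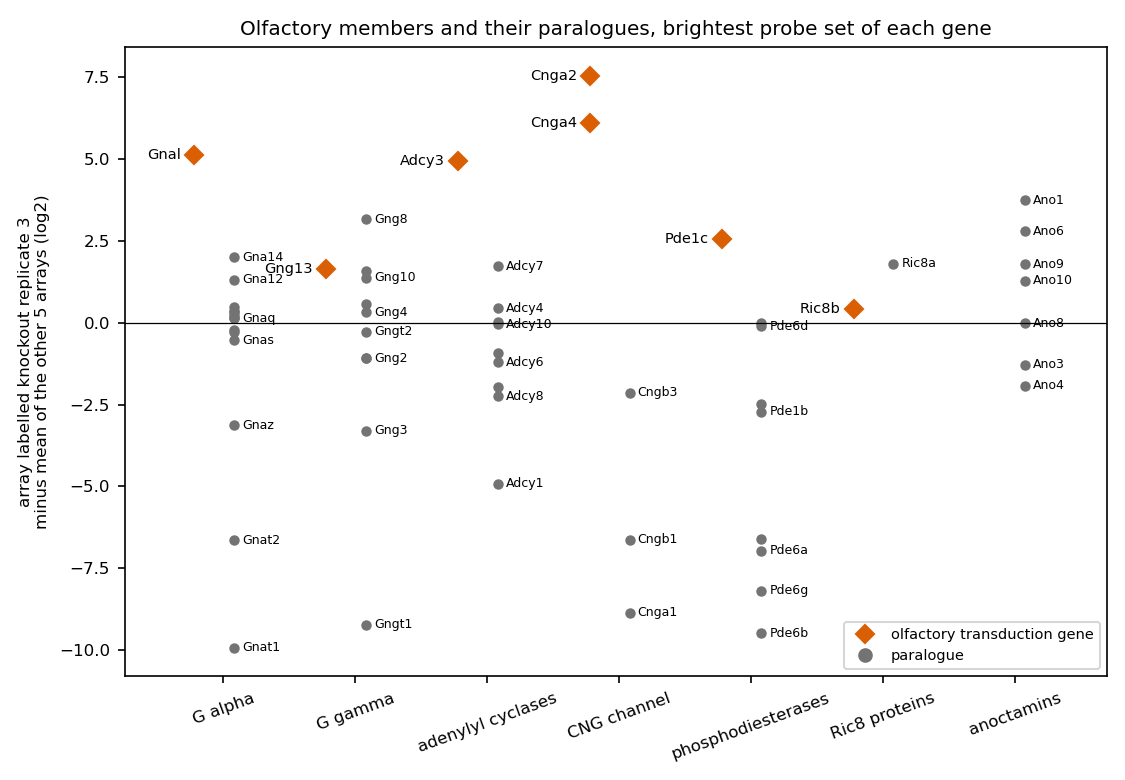
Value in the array labelled knockout replicate 3 minus the mean of the other 5 arrays (y axis, log2) for the brightest probe set of each gene, by gene family (x axis), with diamonds for olfactory transduction genes and circles for their paralogues; closely spaced circles are not all named, and no floor was applied. Gnal, Adcy3, Cnga2, Cnga4 and Pde1c lie above every paralogue of their family, while Gng8 lies above Gng13 and Ric8a above Ric8b. The brightest probe set was picked over all 6 arrays, the array labelled knockout replicate 3 included. The Pde1c probe set brightest in the retina arrays alone stood at -0.05, below Pde1a at -0.01. The Pde1a probe set lay below the highest Bacillus control on all 6 arrays, so it cannot be told from background.

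Other markers of nasal tissue were high along with the cascade in the array labelled knockout replicate 3. The summed linear signal of the 4 measured olfactory neuron markers, of 8 listed, was 21175 there, against 63.4 to 64.2 in knockout replicates 1 and 2 and 69.8 to 73.2 in wild type. All 4 measured gland markers, all 3 sustentacular markers and 2 of 3 ciliated airway markers lay more than 2 log2 units above the retina arrays, and neither of the 2 measured vomeronasal markers did, with Trpc2 at -0.51. The 7 rod markers summed to 112 there, against 83236 to 85357 in knockout replicates 1 and 2 and 86589 to 90987 in wild type. The part of these tissues in the members' values was not tested. Within the retina arrays the sustentacular and gland markers lay below the highest control on all 5 arrays, as did S100a5, while Stoml3 passed on 1 array, Gng8 on 2 and Ncam2 on 3. Stoml3 and Gng8 also stand among the odour signalling genes and the paralogues above.

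Genes with the most similar profile were found by distance over the 6 arrays, each gene taken as its difference from the wild-type mean. For Cnga2 these were Mmp13 (distance 0.29 log2 units) and Adh1 (0.40), for Omp they were Dmp1 (0.23) and S100a9 (0.34), and for Adcy3 they were Col3a1 (0.22) and Ccdc80 (0.23). Gnal was nearest to Cdkl4 (0.13) and Aspn (0.14), and Cnga4 to Kcnj15 (0.21) and Aox3 (0.23). Nearest to Pde1c were Fmn2 (0.20) and Kcnk6 (0.29), nearest to Gng13 were Dock6 (0.08) and Slc22a18 (0.10), and nearest to Ric8b were Jakmip2 (0.12) and Satb1 (0.13). No nearest gene was another member. The array labelled knockout replicate 3 holds the largest part of each profile other than that of Ric8b, where the other arrays weigh as well.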

How the data were processed

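RNA of 3 knockout-labelled and 3 wild-type retina samples was labelled with biotin and hybridised to one-colour arrays, per the labels' protocols. The authors deposited log2 values, and the submitters' processing notes name RMA as the tool. RMA corrects background, normalizes between arrays and gives 1 value per probe set, which hides any shift in total RNA. Software, version and chip definition: not given in the sources used here.

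Of 45101 probe sets, 64 controls were left out. The platform annotation gives 34945 of the remaining 45037 exactly 1 gene, and only these were named. A gene's brightest probe set is that with the highest mean over 6 arrays, the array labelled knockout replicate 3 among them. All 8 Entrez identifiers matched RefSeq. The test of knockout against wild type was limma 3.58.1 (lmFit and eBayes, R 4.3.3), fitted to all probe sets, two-sided, with Benjamini-Hochberg adjustment at 0.05, and the fit was tested on simulated data. The array labelled knockout replicate 3 was set against the mean of the other 5 without a test. Folds against background, and 1 count added after seeing the data, use the highest Bacillus control of each array as floor. Groups came from sample titles. Members, lists and rules were chosen with earlier results of these data known. The rule for named genes took every member probe set, lists of odour signalling genes and paralogues, and the 2 nearest profiles for each member. From the lists the text gives a selection. Protein comparisons that had been planned are not given here. Alternatives covered variance options, array weights, normalization, centring, removal of dim probe sets (under the 40th percentile), the replicate block, 1 probe set a gene, thresholds and each array left out. Figures used matplotlib 3.10.9.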

Additional observations from a re-analysis of the deposited data

How the results depend on the processing

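The count of member probe sets called between knockout and wild type was 0 under every alternative run, with 5 or 6 arrays, and over these the adjusted p of the brightest probe sets lay between 0.980 and 1.0 with 5 arrays and between 0.566 and 1.0 with 6. The counts of 14 probe sets above the retina arrays and 16 above background ranged from 13 to 15 and from 16 to 17 over the alternatives run (13 with each array floored at its highest control, an alternative chosen after seeing the data), and were 14 and 16 with each retina array left out. For differences near 0 the sign depended on the setting. With the replicate number as a block, the 5-array difference of Gnal was 0.016, against -0.046 without it, and that of Cnga4 was 0.017, against -0.028. In that fit wild-type replicate 3 has no partner, and both values equal those without it. The deviations of same-numbered arrays correlated at -0.06, -0.03 and -0.10 over 6 arrays and at -0.07 (replicate 1) and 0.15 (replicate 2) over 5. These values cannot decide whether the numbers pair samples. Over 6 arrays each knockout deviation carries the array labelled knockout replicate 3. Over 5 arrays the deviations of knockout replicates 1 and 2 are exact opposites. The main fits did not take the numbers to pair samples. The block called 0 of 21 member probe sets and 6 of all probe sets, against 5. With each of the 5 arrays left out, Gnal ranged from -0.15 to 0.016, Cnga4 from -0.29 to 0.23, Ric8b from -0.23 to 0.033 and Gng13 from -0.11 to 0.18. With 6 arrays, quality weights put Ric8b at -0.10 and Cnga2 at 0.27, and leaving out each array gave -0.046 to 2.53 for Gnal, -0.028 to 3.16 for Cnga4 and -0.10 to 0.21 for Ric8b. The low end is without the array labelled knockout replicate 3 in each case. Over all probe sets, leaving out 1 array gave 4 to 11 calls with 5 arrays (11 without knockout replicate 1 and 9 without knockout replicate 2) and 0 to 5 with 6 (5 without the array labelled knockout replicate 3), quality weights gave 5 with 6 arrays, a threshold of 0.1 gave 1 with 6, and 1 probe set a gene gave 2 with 5. With 1 knockout array left, that array is assumed to vary like wild type.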
